A study of Mus musculus with 8 samples.

Results

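The tissue inhibitors of metalloproteinases (TIMPs) are a family of 4 genes in the mouse, Timp1, Timp2, Timp3 and Timp4, and all 4 were found by symbol among the 25526 genes of the count tables. Bulk RNA sequencing libraries were made from aortic tissue of male mice with Marfan syndrome. There were 4 libraries from mice aged 2 years and 4 libraries from mice aged 12 weeks. All the mice carried the genotype Fbn1C1041G/+, with 1 mutant copy of the fibrillin-1 gene, and no treatment is stated. The study set an age at which the aneurysm had stopped growing against one at which it was growing. No wild-type mice were compared here, so what age does without the mutation was not measured.

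TIMPs are small secreted proteins whose amino-terminal domain sits in the active site of a matrix metalloproteinase (MMP) and blocks its catalytic zinc. TIMP-1 is the family's inducible member and rises in injured and inflamed tissue, while TIMP-2 is made steadily by many cells and also takes part in the activation of pro-MMP-2 by MMP-14. TIMP-3 stays bound to the extracellular matrix and inhibits members of the ADAM and ADAMTS protease families as well, and TIMP-4 is best known from heart, brain and fat. In an elastic artery these inhibitors are set against the proteases that cut elastin and collagen.

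In both ages most TIMP counts came from Timp3 and Timp2. Timp1 and Timp4 were higher at 2 years, 9.23-fold and 2.73-fold. For Timp2 and Timp3 no difference passed the threshold. In the mouse annotation, Timp1 lies on chromosome X inside Syn1, Timp3 on chromosome 10 inside Syn3 and Timp4 on chromosome 6 inside Syn2, each on the strand opposite to its synapsin host. Timp2 on chromosome 11 holds Cep295nl, on the same strand as Timp2.

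The sequences before the start sites of Timp1 and Timp4 are shown because these are the members called higher at 2 years. They come from RefSeq for build GRCm38.p6, whereas the counts were made on GRCm39, and each shows the 250 bases before the start, 5′ to 3′ on the gene's own strand, with motif matches in capitals. The Timp1 window is chrX:20869916-20870165 on the plus strand and the Timp4 window is chr6:115252206-115252455 on the minus strand.
Timp1: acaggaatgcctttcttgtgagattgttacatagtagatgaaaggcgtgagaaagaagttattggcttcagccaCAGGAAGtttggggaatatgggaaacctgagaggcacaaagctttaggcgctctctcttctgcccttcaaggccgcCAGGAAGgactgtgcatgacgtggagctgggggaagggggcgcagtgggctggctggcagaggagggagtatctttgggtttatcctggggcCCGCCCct
Timp4: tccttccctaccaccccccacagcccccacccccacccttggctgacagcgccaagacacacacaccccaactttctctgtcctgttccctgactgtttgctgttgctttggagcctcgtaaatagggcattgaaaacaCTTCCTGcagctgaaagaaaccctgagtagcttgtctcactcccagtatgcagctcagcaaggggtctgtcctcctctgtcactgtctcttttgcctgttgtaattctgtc

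The motifs searched on both strands of the 300-base windows were the AP-1 element TGANTCA, its variant TGAGTAA, the PEA3/ETS element CAGGAAG, the Sp1 box GGGCGG, the STAT element TTCNNNGAA, the TATA box TATAAA and the CArG box. Each window runs from 250 bases before to 50 bases after the start. In Timp1 a TGAGTAA lies 27 bases into the transcribed part of chrX, with a CAGGAAG close behind it, in chrX:20870188-20870211 on the plus strand of GRCm38.p6.
Timp1 site: tggaTGAGTAAtgcgtcCAGGAAG
This pair is known from cell culture work as the serum response element of Timp1. TGAGTAA was found in 2.64% of 32544 promoter windows and in no other TIMP window. CAGGAAG was found in 13.3% of the windows, with 3 matches in Timp1, 1 in Timp3 and 1 in Timp4. GGGCGG was found in 35.9% of the windows, with 1 match in Timp1, 1 in Timp2 and 2 in Timp3. TGANTCA (7.79% of windows), TTCNNNGAA (8.33%), TATAAA (13.6%) and the CArG box (1.64%) had 0 matches in the 4 TIMP windows. The G and C share of the 250 bases was 54.4% for Timp1, 68% for Timp2, 65.6% for Timp3 and 53.6% for Timp4.

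The libraries held 16251986 to 33880690 counts. Of the tested genes, 52.0% differed between the ages in edgeR's quasi-likelihood test at an adjusted p below 0.05 (25.8% higher and 26.2% lower at 2 years), so a call by itself was common. The ages did not overlap in CPM for 49.6% of tested genes, and 24.3% of tested genes were higher at 2 years with no overlap. Fbn1 had 365 to 610 CPM at 2 years and 762 to 918 CPM at 12 weeks. The missense allele is still transcribed, so these levels do not check the genotype. CPM are counts scaled to 1000000 per library, with library sizes adjusted by TMM (trimmed mean of M values). Log2 fold changes are 2 years over 12 weeks, with the standard error (SE). Smooth muscle markers, which define the aortic wall, summed to 17640 to 26270 CPM at 2 years and 30710 to 36580 CPM at 12 weeks, and 6 of the 8 were lower at 2 years. All 10 macrophage markers (2413 to 3520 CPM summed at 2 years, 620.6 to 859.1 CPM at 12 weeks) and all 8 lymphocyte markers (43.74 to 130.1 CPM and 3.974 to 6.464 CPM) were higher at 2 years. In bulk tissue, more cells of a type and more RNA per cell cannot be told apart.

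The libraries also differed in a measure tied to transcript length. The slope of log2 CPM on log2 transcript length, relative to each gene's mean, was -0.313 to -0.107 in the 2-year libraries and 0.126 to 0.261 in the 12-week libraries (exact permutation p = 0.0286, two-sided, the smallest possible). Shorter transcripts thus tended to be higher at 2 years than longer ones. The longest annotated Timp1 transcript has 883 nt, against 3709 nt for Timp2, 4722 nt for Timp3 and 5496 nt for Timp4. Among 506 genes within 0.25 log2 units of the Timp1 length, the median log2 fold change was 0.63. For the lengths of Timp2, Timp3 and Timp4 it was -0.09, -0.22 and -0.30.

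**Figure D1:**
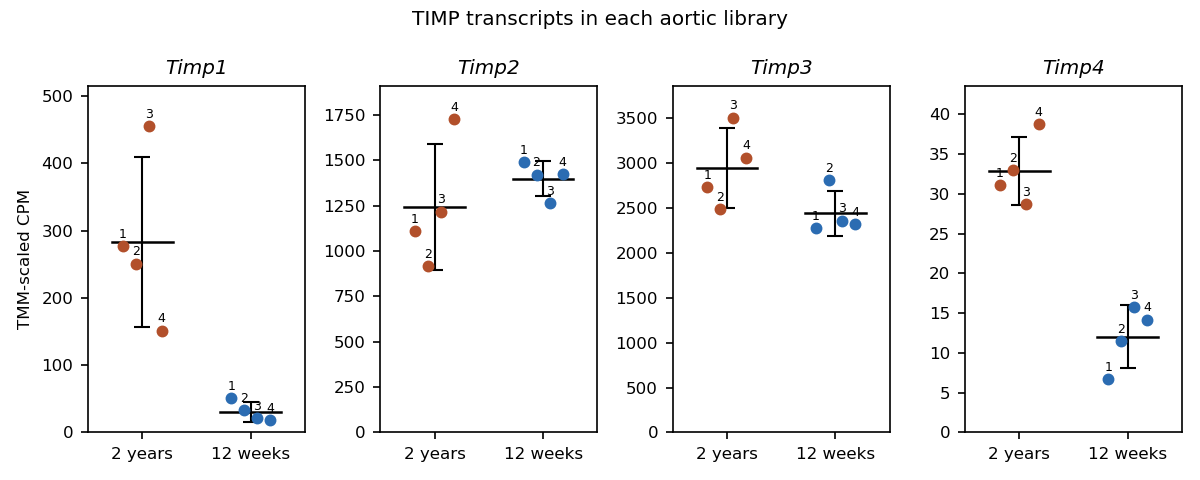
TMM-scaled CPM of each TIMP gene in each library (points, numbered by replicate), with the mean and SD of the 4 libraries of each age. The 2-year points lie above all 12-week points for Timp1 and Timp4, and the ages overlap for Timp2 and Timp3.

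Timp1, the inducible inhibitor, had 276.6, 251.1, 455 and 151.4 CPM in 2-year replicates 1 to 4, against 50.92, 32.88, 20.86 and 18.17 CPM in 12-week replicates 1 to 4. The ages did not overlap: the lowest 2-year value, in replicate 4, was still above the highest 12-week value, in replicate 1. The level was 284 ± 126 CPM at 2 years and 30.7 ± 14.9 CPM at 12 weeks (SD, n = 4 each), and the log2 fold change was 3.21 with an SE of 0.42 (edgeR adjusted p = 0.000241). This fold change ranked 245 among 13978 genes tested. The spread within an age was wide, a 3-fold range at 2 years and a 2.8-fold range at 12 weeks. An offset that removes each library's trend on length and GC lowered the log2 fold change of Timp1 to 2.37 (edgeR adjusted p = 0.00048). Macrophage and lymphocyte markers moved in the same direction as Timp1. At 2 years macrophage markers summed highest in replicate 3 (3520 CPM). Lymphocyte markers summed highest in replicate 4 (130.1 CPM), which had the least Timp1. The 8 fibroblast markers summed to 3875, 4689, 8204 and 4635 CPM in 2-year replicates 1 to 4, against 5195 to 5988 CPM at 12 weeks. Of these 2 were higher (25%, against 25.8% of all genes) and 1 lower (12.5%, against 26.2%). The part of these cells in the Timp1 rise was not tested.

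Timp4, the member known from heart and fat, had 31.13, 33.01, 28.74 and 38.75 CPM in 2-year replicates 1 to 4, against 6.682, 11.51, 15.79 and 14.19 CPM in 12-week replicates 1 to 4. The groups did not overlap, and the 2-year values lay close together, within a 1.35-fold range. The level was 32.9 ± 4.27 CPM at 2 years and 12.1 ± 3.99 CPM at 12 weeks (SD, n = 4 each), and the log2 fold change was 1.45 with an SE of 0.23 (edgeR adjusted p = 0.000373). The 8 fat cell markers summed to 271.2 to 825.6 CPM at 2 years and 118.7 to 610.7 CPM at 12 weeks, and edgeR called 0 of the 8 (1 at an unadjusted p below 0.05, and 1 called by DESeq2 and by limma voom). Without 12-week replicate 3 edgeR called 4 of the 8 higher at 2 years, and without replicate 3 of both ages 3. The 8 heart muscle markers summed to 74.72 to 146.3 CPM at 2 years and 73.85 to 965.7 CPM at 12 weeks, with the highest value in 12-week replicate 3. Of the 5 tested, edgeR called Myh6 and Tnni3 lower at 2 years, while DESeq2 and limma voom called 0, and edgeR called 0 when any single 2-year library was left out. Timp4 was at 1.60 without 12-week replicate 3 (adjusted p = 0.000544) and at 1.67 without replicate 3 of both ages (adjusted p = 0.000592). The part of fat cells in the Timp4 difference was not tested.

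Timp3, the matrix-bound inhibitor, was the most abundant member and ranked 30 by mean CPM among the tested genes. It had 2736, 2485, 3509 and 3062 CPM in 2-year replicates 1 to 4, against 2277, 2815, 2359 and 2322 CPM in 12-week replicates 1 to 4. The groups overlapped through 12-week replicate 2, which lay above the first 2 of the 2-year libraries. The level was 2948 ± 442 CPM at 2 years and 2443 ± 250 CPM at 12 weeks (SD, n = 4 each), and the log2 fold change was 0.27 with an SE of 0.16 (edgeR adjusted p = 0.187). Under the offset for length and GC, Timp3 was at 0.42 and passed the threshold (adjusted p = 0.0377), in a fit that called 50.7% of all genes (23.0% higher, 27.7% lower).

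Timp2, made steadily by many cells, ranked 65 by mean CPM. It had 1109, 916.5, 1217 and 1727 CPM in 2-year replicates 1 to 4, against 1489, 1421, 1264 and 1425 CPM in 12-week replicates 1 to 4. The ages overlapped, and the 2-year libraries held both the highest and the lowest value of all 8. The level was 1242 ± 346 CPM at 2 years and 1400 ± 95.7 CPM at 12 weeks (SD, n = 4 each), and the log2 fold change was -0.17 with an SE of 0.19 (edgeR adjusted p = 0.474). Without 2-year replicate 4, the library with the most Timp2, it was -0.37 (adjusted p = 0.0737). So 2 of the 4 TIMP genes were higher at 2 years, where 25.8% of all tested genes were, and Timp2 and Timp3 were not called in either direction.

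**Figure D2:**
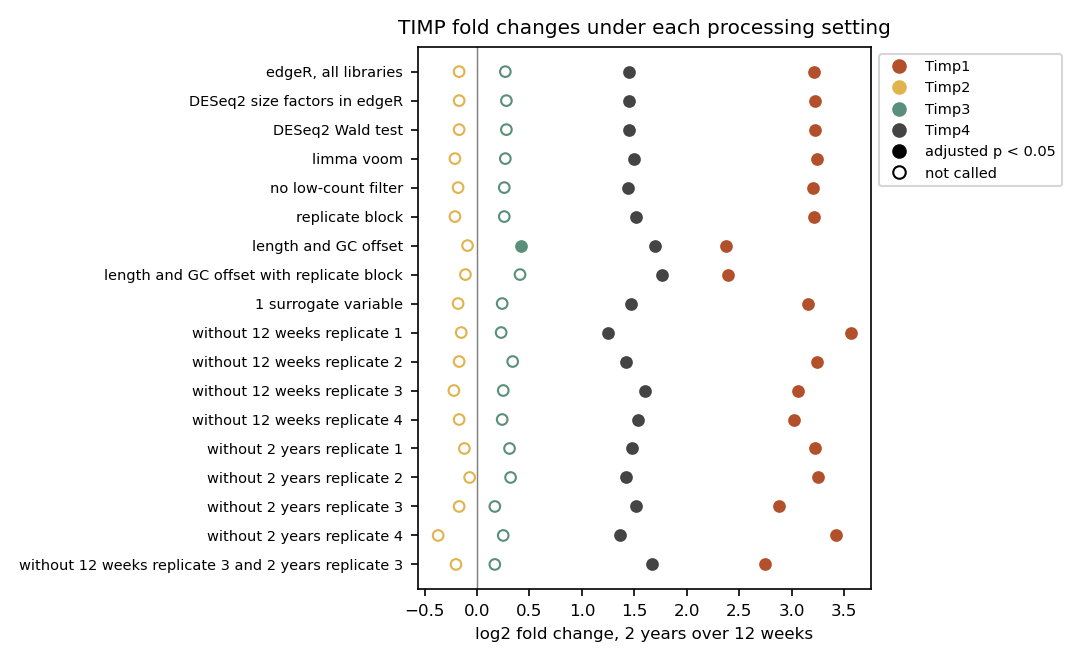
Log2 fold change, 2 years over 12 weeks, of each TIMP gene (colour) in the edgeR fit and under each of 17 alternative settings (rows); filled points passed an adjusted p of 0.05. Timp1 stays between 2.37 and 3.56 and Timp4 between 1.25 and 1.76, always filled, and Timp3 is filled in a single row, the length and GC offset.

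Members of the family diverged inside the same library. At 2 years, replicate 3 held the most Timp1 and Timp3 and the least Timp4, and replicate 4 held the most Timp2 and Timp4 and the least Timp1. Replicate 3 also had the lowest total count of all libraries and the highest share of counts from 13 mitochondrial genes, 10.3%, against 4.14% to 5.94% in the other 2-year libraries and 4.78% to 7.33% at 12 weeks. The part of this share in the values of replicate 3 was not tested. Ratios between 2 members of one library do not depend on how libraries are scaled. Each of the 6 pairs was thus compared between ages by an exact permutation test, two-sided, adjusted over the 6 pairs. The ratios were not corrected for the length trend between the libraries. Genes of the length of Timp1 had a median log2 fold change of 0.63, against -0.09, -0.22 and -0.30 for Timp2, Timp3 and Timp4. The part of this trend in the ratios was not tested. The log2 ratio of Timp1 to Timp2 counts was -2.20 ± 0.909 at 2 years and -5.63 ± 0.616 at 12 weeks (exact permutation, adjusted p = 0.0429). That of Timp1 to Timp3 was -3.47 ± 0.60 at 2 years and -6.43 ± 0.676 at 12 weeks (exact permutation, adjusted p = 0.0429). Timp1 thus rose relative to both abundant members. Without 12-week replicate 1 or without 2-year replicate 2, both ratios missed the threshold (exact permutation, adjusted p = 0.0571). The differences were then 3.681 and 3.317 for Timp1 to Timp2, and 3.271 and 2.899 for Timp1 to Timp3.

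Timp4 rose relative to both as well. The log2 ratio of Timp2 to Timp4 was 5.21 ± 0.308 at 2 years and 6.93 ± 0.632 at 12 weeks, and that of Timp3 to Timp4 was 6.48 ± 0.314 and 7.73 ± 0.549 (exact permutation, adjusted p = 0.0429 for each). Without 12-week replicate 1 or 2-year replicate 2 these also missed the threshold (exact permutation, adjusted p 0.0571 to 0.0857). The differences were then -1.431 and -1.583 for Timp2 to Timp4, and -1.02 and -1.164 for Timp3 to Timp4. The 2 abundant members were not told apart: the ratio of Timp2 to Timp3 was -1.27 ± 0.312 at 2 years and -0.80 ± 0.172 at 12 weeks (exact permutation, adjusted p = 0.0857). Without 2-year replicate 4 that ratio differed by -0.62 and passed (exact permutation, adjusted p = 0.0343). For Timp1 over Timp4 the threshold was not passed either, with log2 ratios of 3.01 ± 0.83 at 2 years and 1.30 ± 1.21 at 12 weeks (exact permutation, adjusted p = 0.0686). In 12-week replicate 1 the ratio of Timp1 to Timp4, 2.93, was inside the 2-year range of 1.97 to 3.98, since this library had the most Timp1 and the least Timp4 of its age.

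Levels of different genes can be compared only per transcript length. In CPM per kilobase of the longest transcript, the order at 2 years was Timp3 (624 ± 93.7), Timp2 (335 ± 93.3), Timp1 (321 ± 143) and Timp4 (5.99 ± 0.777). At 12 weeks it was Timp3 (517 ± 52.9), Timp2 (377 ± 25.8), Timp1 (34.8 ± 16.9) and Timp4 (2.19 ± 0.726; SD, n = 4 each). Timp1 and Timp2 did not differ beyond their spread at 2 years, where Timp1 was the higher of the pair in replicates 1, 2 and 3 and the lower in replicate 4 (171.5 and 465.6 CPM per kb). This order rests on the length used: by the mean length of all coding transcripts, Timp1 stood at 330.5 and Timp2 at 561.3 CPM per kb at 2 years. The 4 genes together reached 1286 ± 224 CPM per kb at 2 years and 931.8 ± 65.6 at 12 weeks (exact permutation p = 0.0286, two-sided, the smallest possible). Summed as CPM with no division by length, they reached 4507 ± 711 at 2 years and 3886 ± 272 at 12 weeks (exact permutation p = 0.229). Neither sum was corrected for the length trend between the libraries.

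As shares of that per-length pool, Timp1 made up 26.17%, 26.74%, 32.37% and 13.27% in 2-year replicates 1 to 4, against 6.118%, 3.656%, 2.726% and 2.288% in 12-week replicates 1 to 4. Every 2-year share of Timp1 was above every 12-week share. The mean share was 24.6 ± 8.08% at 2 years and 3.70 ± 1.71% at 12 weeks (SD, n = 4; exact permutation, adjusted p = 0.0381 over the 4 shares). Timp2 held 26.2 ± 6.78% at 2 years and 40.6 ± 2.52% at 12 weeks, and Timp3 held 48.7 ± 1.52% and 55.5 ± 3.32% (exact permutation, adjusted p = 0.0381 for both). Timp4 was under 1% of the pool in every library, with 0.478 ± 0.107% at 2 years and 0.238 ± 0.0896% at 12 weeks (exact permutation, adjusted p = 0.0571).

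Whether these shares were called depends on the libraries, and their size depends on the transcript lengths. With 1 library left out, the Timp1 share differed by 18.36 to 24.73 points. The Timp2 share then differed by -17.63 to -12.49 points and the Timp3 share by -8.264 to -5.812 points. The exact test is coarse with so few libraries, and its smallest possible p before adjustment is 0.0286. With any 1 library left out, the adjusted p of the Timp1, Timp2 and Timp3 shares was 0.0571 to 0.0762 (exact permutation), except that without 2-year replicate 3 the Timp1, Timp2 and Timp4 shares were called (0.0381). The Timp4 value rests on a longest transcript of 5496 nt, where the mean over its coding transcripts is 3220.5 nt, and which of them the aorta makes is not known here. With the mean transcript length the Timp1 share differed by 13.8 percentage points (exact permutation, adjusted p = 0.0571), that of Timp2 by -11.6 points (0.0762) and that of Timp3 by -2.45 points (0.229), so none was called. Without division by length the Timp3 share was higher at 2 years by 2.74 points (adjusted p = 0.171). The Timp1 share was higher and the Timp2 share lower at 2 years in all of these. The shares were not corrected for the length trend between the libraries.

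**Figure D3:**
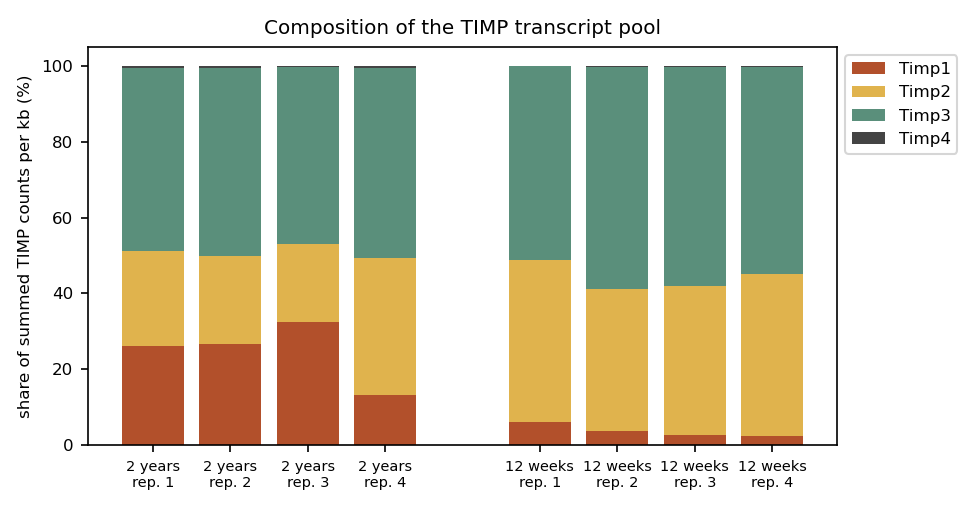
Share of each TIMP gene in the summed TIMP counts per kilobase of the longest transcript (percent, stacked) in each library. Timp1 takes 13.27% to 32.37% in the 2-year libraries and 2.288% to 6.118% in the 12-week libraries, and Timp4 is a thin line at the top.

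Genes that overlap a TIMP gene could share its reads, since the use of strand in counting is not given in the sources used here. The synapsin genes encode proteins of nerve terminals. Syn1 had 229 counts over the 2-year libraries and Timp1 had 26944 over the same libraries. At 2 years Syn2 had 227 counts beside 3423 for Timp4, Syn3 had 58 counts beside 296333 for Timp3, and Cep295nl had 137 counts beside 128812 for Timp2. The annotated exons of Timp1 share 0 bases with those of Syn1, those of Timp4 share 90 bases with Syn2, and those of Timp3 share 1733 bases with Syn3. Syn1 did not follow Timp1 (log2 fold change -0.19, SE 0.30, edgeR adjusted p = 0.608), nor Syn2 Timp4 (0.28, SE 0.33, adjusted p = 0.485). Cep295nl was at -0.63 (SE 0.36, adjusted p = 0.16). Syn3 fell, with 0.546 ± 0.11 CPM at 2 years and 1.201 ± 0.14 CPM at 12 weeks (SD, n = 4; -1.11, SE 0.32, edgeR adjusted p = 0.0123). Gm17482, a short coding gene annotated across Timp4, had 0 counts in every library.

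The MMPs are the main targets of the TIMPs. Of 23 listed genes 15 were tested, and 4 were higher (26.7%) and 3 lower (20%) at 2 years, with 8 not called. Of all tested genes 25.8% were higher and 26.2% lower, so the MMP shares lay near the background. Their median log2 fold change was 0.16, against -0.01 over all genes tested. Mmp3 (stromelysin-1) had 428.9 ± 212 CPM at 2 years and 73.4 ± 11.6 CPM at 12 weeks (SD, n = 4; log2 fold change 2.55, edgeR adjusted p = 8.7e-05). Mmp13, a collagenase, rose 8.4-fold, Mmp25, a membrane-anchored enzyme of leukocytes, rose 16-fold to 7.38 ± 2.26 CPM, and Mmp12, the macrophage elastase, rose 2.8-fold. Mmp17, a membrane-anchored enzyme found in vascular smooth muscle, fell to 42.4 ± 4.13 CPM at 2 years, against 112 ± 11.3 CPM at 12 weeks (log2 fold change -1.40, edgeR adjusted p = 8.74e-06). The membrane-type enzymes Mmp15 and Mmp16 fell 1.81-fold and 1.39-fold. The gelatinase Mmp2 (0.16, adjusted p = 0.382) and its activator Mmp14 (-0.15, adjusted p = 0.578) were not called, nor was Timp2, which works with both.

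Set against each other, summed MMP transcripts reached 488 ± 163 CPM per kb at 2 years and 262 ± 22.3 at 12 weeks (exact permutation p = 0.0286). The log2 ratio of summed MMP to summed TIMP level was -1.46, -1.29, -1.13 and -1.86 in 2-year replicates 1 to 4, against -1.70, -2.03, -1.86 and -1.75 in 12-week replicates 1 to 4. The ages overlapped through 2-year replicate 4. Its summed MMP level, 357.3 CPM per kb, was the lowest of that age, against 433.8 to 725.9 in the other 2-year libraries. Its summed TIMP level was 1293 CPM per kb. The mean ratio was -1.44 ± 0.31 at 2 years and -1.83 ± 0.145 at 12 weeks (SD, n = 4; exact permutation p = 0.0857, two-sided). Neither the summed levels nor this ratio was corrected for the length trend between the libraries. Without 2-year replicate 4 the difference was 0.54 (exact permutation p = 0.0286). TIMP transcripts outweighed MMP transcripts in every library. A single protease carried the sign of the difference: without Mmp3 in the sum, the ratio differed by -0.286 (exact permutation p = 0.0571).

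TIMP-3 and, more weakly, other members also inhibit some ADAM and ADAMTS enzymes. Enzymes of these families shed membrane proteins and cut proteoglycans. The list was not restricted to enzymes that TIMPs inhibit. Of 14 tested, 2 were higher (14.3%, against 25.8% of all genes) and 5 lower (35.7%, against 26.2%) at 2 years. Their median was -0.11. Under the offset for length and GC, 5 were higher and 5 lower, in a fit that called 23.0% of all genes higher and 27.7% lower. Adam33 fell to 6.78 ± 2.99 CPM at 2 years, against 64.0 ± 13.5 CPM at 12 weeks (SD, n = 4; log2 fold change -3.26, edgeR adjusted p = 6.15e-06). Adam19, which acts in heart and vessel development, fell 2.62-fold, Adamts15 fell 2.02-fold, and Adamts2, the procollagen N-proteinase, fell 2.32-fold. Adamts9 fell 2.64-fold. Adam8, a protease of leukocytes, rose 5.24-fold and Adam12 rose 2.08-fold. The classic TIMP-3 targets Adam17 (log2 fold change -0.10, edgeR adjusted p = 0.485), Adamts4 (-0.35, 0.269) and Adamts5 (0.05, 0.821) were not called, and neither was Timp3.

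Of 11 tested partners that TIMPs bind outside the active site of a protease, 5 were higher (45.5%, against 25.8% of all genes) and 1 lower (9.09%, against 26.2%) at 2 years, with a median of 0.58. Cd63, a tetraspanin that binds TIMP-1 at the cell surface, had 391 ± 66.7 CPM at 2 years and 216 ± 26.7 CPM at 12 weeks (SD, n = 4; log2 fold change 0.86, edgeR adjusted p = 0.000972). Under the offset for length and GC, Cd63 was at 0.11 and not called (adjusted p = 0.442). Cd74, the invariant chain of MHC class II and a reported TIMP-1 receptor, rose 7.19-fold, and Cd82 and Cd44 rose 2.86-fold and 2.02-fold. Efemp1 (fibulin-3), which binds TIMP-3, rose 2.02-fold, and the integrin chain Itga3 fell 1.59-fold. Macrophages express Cd74, Cd44 and Cd63, and macrophage markers rose in the same libraries. Their part in these changes was not tested.

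Timp1 is induced in cell culture by inflammatory cytokines, among them the interleukin-6 family acting through STAT3, by AP-1 factors and by TGF-beta. The list for these signals also holds Il1b, Tnf and the transcription factors Runx1 and Egr1. Of its 21 tested genes, 9 were higher (42.9%, against 25.8% of all genes) and 1 lower (4.76%, against 26.2%) at 2 years. The other 11 were not called, and the median was 0.53. Il1b rose 34.6-fold, with 14.2 ± 5.86 CPM at 2 years and 0.41 ± 0.0828 CPM at 12 weeks (SD, n = 4; log2 fold change 5.11, edgeR adjusted p = 1.77e-06). Its log2 fold change was 4.46 under the offset for length and GC. Socs3, a target and brake of STAT3, rose 8.11-fold, Osm (oncostatin M) rose 16.6-fold and its receptor chain Osmr rose 1.54-fold. Of the AP-1 genes, Junb rose 3.6-fold, while Fos (log2 fold change 1.57, edgeR adjusted p = 0.113), Jun (-0.32, 0.471) and Fosl1 (0.37, 0.383) were not called. Tnf rose 6.59-fold, Runx1 2.85-fold, Tgfb1 1.52-fold and Tgfbr2 1.33-fold, and the receptor Lifr fell 1.71-fold. Tnf had 164 counts over the 2-year libraries and 23 over the 12-week libraries. Il6 itself did not pass the expression filter, with 372, 97, 125 and 10 counts in 2-year replicates 1 to 4, against 7, 1, 0 and 1 in 12-week replicates 1 to 4.

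Among 12 tested inhibitors of other protease classes, 5 were higher (41.7%, against 25.8% of all genes) and 2 lower (16.7%, against 26.2%), with a median of 0.30. Slpi, an inhibitor of leukocyte elastase, rose 122-fold, to 51.7 ± 15.04 CPM at 2 years, against 0.424 ± 0.145 CPM at 12 weeks (SD, n = 4; log2 fold change 6.93, edgeR adjusted p = 2.03e-07). Its log2 fold change was 6.16 under the offset for length and GC. Serpina3n, a serine protease inhibitor, rose 7.8-fold (2.96 on the log2 scale, and 2.14 with 2-year replicate 3 left out). The secreted inhibitor Wfdc1 fell 1.47-fold. Other inhibitor genes called were Cst3 (cystatin C, 1.63-fold higher), Tfpi2 (2.73-fold higher) and Serpinf1 (1.81-fold lower). The ages overlapped in CPM for Cst3, whose longest transcript has 860 nt. Under the offset for length and GC, 3 inhibitor genes were called higher rather than 5, in a fit that called 23.0% of all genes higher.

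**Figure D4:**
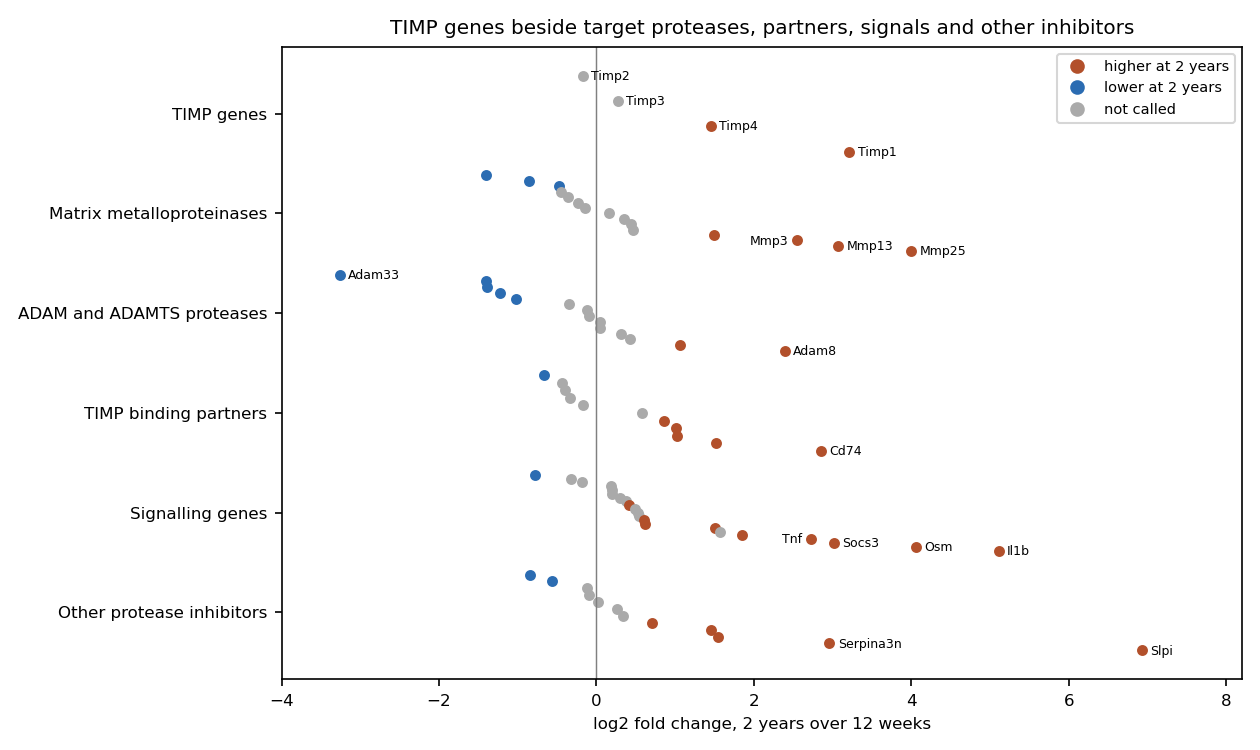
Log2 fold change, 2 years over 12 weeks, of each tested gene of the TIMP family and of 5 gene lists (rows), coloured by the edgeR call; genes beyond 2 on the log2 scale are named. Each list holds genes on both sides of 0, and Timp1 lies at 3.21 beside Mmp13 at 3.07 and Mmp3 at 2.55.

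Likeness of pattern was measured as the root mean square (RMS) difference between centred log2 CPM profiles over the 8 libraries, among genes of at least 1 CPM on average. The 5 genes nearest to Timp1 were Milr1 (RMS 0.345), Aif1 (0.345), Cyp7b1 (0.355), Ly86 (0.361) and Dusp2 (0.365). All were called higher at 2 years, which follows from the choice, since the profiles include the difference between the ages. Aif1 and Ly86 are expressed by macrophages. The 5 nearest to Timp4 were Gimap4 (0.172), Slc2a9 (0.224), Casp1 (0.226), Abcb1a (0.227) and Lrrn1 (0.246), all called higher for the same reason. Around Timp3, with an almost level profile, were Mak16 (0.053), Ddx24 (0.054), Znhit6 (0.06), Fam124a (0.079) and Arhgap18 (0.083). Genes near Timp2 included Clip2 (0.092), Cyb5r3 (0.095), Eml4 (0.097) and Fzd5 (0.1).

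Within each age the libraries also had an order. The Timp1 level ran replicate 3, 1, 2, 4 from high to low at 2 years and replicate 1, 2, 3, 4 at 12 weeks. Of 13977 other tested genes, 15 (0.11%) had the same order in both ages, and Mmp3 was 1 of them, with 390.6, 365.6, 728.3 and 231.1 CPM in 2-year replicates 1 to 4, against 90.27, 71.5, 67.13 and 64.8 CPM in 12-week replicates 1 to 4. Mmp3 was the only gene of the 5 lists among the 15. Socs3 shared the order at 2 years, with 48.27, 36.76, 79.78 and 27.43 CPM, and not at 12 weeks, with 7.25, 4.659, 6.14 and 5.596 CPM. Serpina3n shared it at 12 weeks, with 60.71, 37.89, 26.96 and 25.06 CPM, and at 2 years swapped replicates 1 and 2, with 167.6, 208, 675.9 and 123.9 CPM. For Timp2, Timp3 and Timp4, 59 (0.42%), 79 (0.57%) and 17 (0.12%) other genes had that member's order in both ages, more than for Timp1. Orders of 4 libraries are a description, and no relation between these genes was tested.

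**Figure D5:**
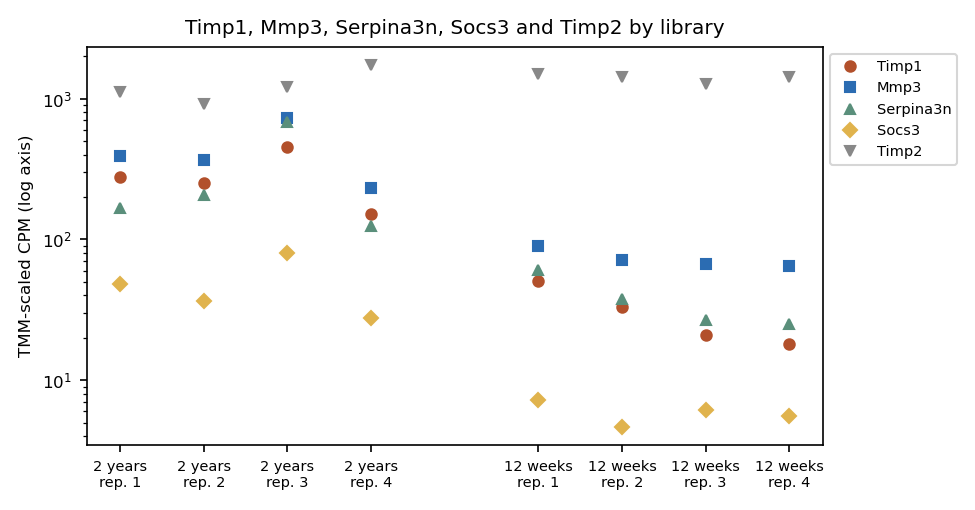
TMM-scaled CPM (log axis) of Timp1, Mmp3, Serpina3n, Socs3 and Timp2 in each library. At 2 years Timp1, Mmp3, Serpina3n and Socs3 are highest in replicate 3 and lowest in replicate 4, where Timp2 has its highest value, 1727 CPM.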

How the data were processed

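Libraries of aortic RNA were sequenced on a NovaSeq, per the labels' protocols. The deposited tables hold raw counts per gene symbol, made by the authors, 1 table per library and 4 libraries per age, per the labels and the file headers. Per the submitters' processing notes the genome build was GRCm39. No source used here gives the aligner, counting tool, annotation or use of strand. Nothing in the labels says which libraries were prepared together, so a preparation batch and age cannot be told apart.

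Of 25526 genes, 13978 passed filterByExpr with its defaults and were tested with edgeR 4.0.16 (R 4.3.3; TMM, quasi-likelihood F test, robust, age as the only term), with Benjamini-Hochberg adjustment over all of them and a threshold of 0.05. Alternatives used DESeq2 1.42.0, limma 3.58.1 and sva 3.50.0. Lengths and GC shares come from GENCODE M21 (GRCm38) by symbol, for 99% of tested genes. Length and GC offsets used natural splines with 4 degrees of freedom each. Pairwise ratios used a pseudocount of 0.5. Exact permutation tests used all 70 assignments of libraries to 2 ages and counted absolute differences at least as large. Libraries of 1 age differed by 23.5 to 150 times counting noise, so none was counted as a copy. Where libraries do not come from separate animals, p-values measure only the spread between these samples. Same-numbered libraries of the 2 ages deviated with correlations of -0.31 to 0.05, so the numbers were not taken as pairs. The scripts were tested on simulated data.

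The members and lists were chosen with earlier results of these data known. Named are the TIMP genes, Fbn1, the overlapping genes, up to 4 called genes with the smallest p per list (or 2 with the highest mean CPM), and the 5 genes nearest in pattern to each member, except a few that are not reported here. Others named to complete a count, and Mmp2, Mmp14, Adam17, Adamts4, Adamts5, Fos, Jun, Fosl1, Il6, Stat3, Il6st, Il6ra, Il11ra1, Lif, Il11 and Gm17482, were chosen after their values were seen.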

Additional observations from a re-analysis of the deposited data

Results flagged for a closer look

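A library far from the other 3 of its age was looked for in 158 groups of 4 values. In 12 a single library's gap to the nearest other passed Dixon's limit for 4 values, taking up at least 0.832 of the group's range, where chance gives about 1 in 20. Among the TIMP genes this was Timp3, at 2815 CPM in 12 weeks replicate 2. Among the ADAM and ADAMTS proteases it was Adam33, at 11.25 CPM in 2 years replicate 3 and at 84.16 CPM in 12 weeks replicate 1. Among the other inhibitors it was Serpina3n, at 675.9 CPM in 2 years replicate 3. Among cell markers, heart genes stood out with Myh6 at 8.73 CPM in 2 years replicate 1 and at 428.2 CPM in 12 weeks replicate 3, where Tnni3 had 34.29 CPM. Other markers were Cd2 at 16.28 CPM in 2 years replicate 4 and Tek at 40.48 CPM in 12 weeks replicate 1. Among the genes nearest in pattern, Cyp7b1 had 0.611 CPM and Gimap4 4.455 CPM in 12 weeks replicate 1, and Znhit6 had 14.82 CPM in 12 weeks replicate 2.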

How the results depend on the processing

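Timp1 (2.37 to 3.56 on the log2 scale, adjusted p 1.72e-10 to 0.00107) and Timp4 (1.25 to 1.76, 2.2e-08 to 0.00228) were called higher under all 17 alternatives of the fit, and Timp2 under none (-0.37 to -0.07). Timp3 was called only with the length and GC offset (0.42), as was Cep295nl (-0.93). The share of genes called ran from 42.2% to 58.2%, with 2791 to 3930 higher and 3201 to 4206 lower. With the replicate block Timp1 was at 3.21, and 3112 genes were higher and 3320 lower; no 2-year library correlated best with the 12-week library of its own number, and the block alone changed no TIMP call. With the offset and block Timp3 was at 0.41 and not called (adjusted p = 0.0966). Fbn1 (-0.77) turned to 0.15 with the offset and 0.14 with the offset and block. So did Clip2 (0.23 and 0.23), Eml4 (0.06 and 0.06), Fzd5 (0.34 and 0.32) and Mak16 (-0.14 and -0.15), and Cyb5r3 ran from -0.23 to 0.05 leaving out a library. The cause was not tested.

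With the offset and block 1 MMP gene was lower, 5 ADAM or ADAMTS genes were higher (5 also with the offset, 4 with DESeq2; 1 to 3 leaving out a library), 0 partners were lower, 14 signalling genes were higher and 0 lower (0 also with the offset), and 3 other inhibitors were higher (3 also with the offset, and 3 without replicate 3 of both ages). Lower partners were 3 with DESeq2, 2 with limma voom, 3 with 1 surrogate variable and 1 to 2 leaving out a library. Fat cell markers called higher were 1 with DESeq2, 1 with limma voom and 4 with the block, against 0 (0 to 4 leaving out a library). Heart muscle markers called lower were 0 with DESeq2, limma voom or the block and 0 to 3 leaving out a library, against 2. Without division by length the shares differed by 5.53 points for Timp1, -8.70 for Timp2 and 2.74 for Timp3, and with mean lengths by 13.8, -11.6 and -2.45. Without Mmp3 the MMP to TIMP ratio differed by -0.286. Leaving out 1 library or replicate 3 of both ages, the shares differed by 18.04 to 24.73 points (Timp1), -17.63 to -12.49 (Timp2), -8.264 to -5.447 (Timp3) and 0.2031 to 0.3204 (Timp4). The log2 ratios differed by 3.071 to 3.865 (log2 Timp1/Timp2), 2.649 to 3.271 (log2 Timp1/Timp3), -0.6226 to -0.3889 (log2 Timp2/Timp3), -1.988 to -1.431 (log2 Timp2/Timp4) and -1.566 to -1.02 (log2 Timp3/Timp4), and the MMP to TIMP ratio by 0.2898 to 0.5397. Without replicate 3 of both ages the exact tests cannot reach 0.05. Depth limits the values of overlapping genes: Syn3 had 58 counts over the 2-year libraries.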
